A study of Mus musculus with 12 samples.

Results

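Aquaporins are membrane channels that let water cross cell membranes, and the aquaglyceroporins among them also pass glycerol. The members described here were the genes Aqp1, Aqp3, Aqp4, Aqp7, Aqp8, Aqp9 and Aqp11, chosen by symbol, which are 7 of the 55376 genes in the count table. They were compared between mice with and without the long noncoding RNA EPR in the colon epithelium, and set against genes of epithelium, blood vessels and fat in the same libraries. Of these 7 genes, 5 passed the filter on low counts, and Aqp3 and Aqp9 did not.

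RNA-Seq libraries of proximal colon came from 6 EPR fl/fl mice and 6 EPR cKO mice, with 1 library per animal and an age of 12 weeks in both groups. EPR fl/fl animals carried loxP sites around the promoter and exon 1 of both EPR alleles and no Cre, and served as controls. EPR cKO animals carried the same floxed alleles plus a CDX2P-NLS Cre transgene, whose human CDX2 regulatory sequence drives the recombinase in the epithelium of distal ileum, cecum and colon. The whole proximal tissue was used, so each library mixed recombined epithelium with the muscle, vessel, nerve, immune and fat cells of the wall, which lie outside the tissue where this Cre is driven.

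The channels divide the water and glycerol work of the colon between cell types. Aqp8 is a water channel of the absorptive surface epithelium, Aqp4 a water channel of basolateral epithelial membranes and of glia, and Aqp11 an unorthodox member kept largely inside the cell. Aqp1 is the water channel of capillary endothelium and red blood cells, and Aqp7 lets glycerol out of fat cells. Aqp3 is an aquaglyceroporin of basolateral membranes, and Aqp9 one of liver and white blood cells. All share a fold in which short sequence boxes, usually read as Asn-Pro-Ala, meet in the middle of the pore.

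The first pore box of 4 members is given below to show how Aqp1, Aqp8, Aqp7 and Aqp11 differ in the coding sequence that the reads were counted over. The boxes of Aqp3 and Aqp9, the other aquaglyceroporins among the members, were not compared, so Aqp7 does not stand for that class. Each run is 27 bases of the coding strand, 5′ to 3′, from the GENCODE M21 transcript, and the 3 codons of the box are in capitals.

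Aqp1: gctcacctcAACCCTGCGgtcacactg
Aqp8: ggacacttcAACCCTGCTgtgtcgctg
Aqp7: gcccacatgAATGCCGCAgtgactttc
Aqp11: acagctagcAACCCGTGCggcgtgatg

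In mm10 the Aqp1 run lies at chr6:55336707-55336733 on the plus strand, in exon 1 of 4, and the Aqp8 run at chr7:123464193-123464219 on the plus strand, in exon 3 of 6. The Aqp7 run lies at chr4:41035602-41035628 on the minus strand, in exon 3 of 6, and the Aqp11 run at chr7:97737676-97737702 on the minus strand, in exon 1 of 3. The Aqp1 and Aqp8 codons read Asn-Pro-Ala, while those of Aqp7 and Aqp11 depart from it. No exon of the 7 members overlapped an exon of another annotated gene. Of the 50-base stretches of Aqp7 exons, 7.23% (181 of 2503) also occurred in other genes, so its counts are less certain than those of Aqp1, Aqp4, Aqp8 and Aqp11, which shared 0%.

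Library totals were 13093904 to 30727736 counts in EPR fl/fl and 18468123 to 33211041 in EPR cKO. EPR itself, listed as Smim31, checked the labels, with 297 to 1474 counts in the 6 EPR fl/fl libraries and 0 to 10 in the 6 EPR cKO libraries. In CPM, the count scaled to the size of the library, EPR averaged 39.4 ± 14.5 in controls against 0.132 ± 0.151 in EPR cKO (SD, n = 6), and it fell by 8.09 on the log2 scale (SE 0.47, edgeR adjusted p = 1.61e-06). EPR cKO 1 stood apart from the other libraries of its group: its smooth muscle genes averaged 9.46 on the log2 CPM scale, against 6.46 to 7.77 in EPR cKO 2 to 6 and 7.92 to 8.66 in EPR fl/fl. Values without that library are given beside the main results that it changes.

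Aqp8 had the highest level of the 7 members once exon length was taken into account, and Aqp9 the lowest. In EPR fl/fl the level was 98.4 ± 30.6 CPM per kilobase of exon for Aqp8, 33.5 ± 7.90 for Aqp1, 24.4 ± 6.06 for Aqp4 and 6.61 ± 0.657 for Aqp11 (SD, n = 6). Aqp7 followed at 1.29 ± 0.477 CPM per kilobase, then Aqp3 at 0.163 and Aqp9 at 0.0804. These values placed Aqp8 at percentile 96.9 of all tested genes by level per kilobase, Aqp1 at 89.5, Aqp4 at 85.2, Aqp11 at 55.6 and Aqp7 at 19.6. Neighbours in this order were separate in every EPR fl/fl library except for Aqp1 and Aqp4, whose ranges of 26 to 44.8 and 15.3 to 32.5 CPM per kilobase overlapped, and Aqp3 and Aqp9, whose ranges of 0.0414 to 0.284 and 0.0283 to 0.149 also overlapped.

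In EPR cKO, Aqp8 was again at the top, at 135 ± 59.6 CPM per kilobase. Aqp4 at 27.2 ± 11 then stood above Aqp1 at 23.8 ± 6.10, again with overlapping ranges (10.9 to 36.3 and 13.8 to 32.2 CPM per kilobase). Aqp11 was at 7.49 ± 0.581 and Aqp7 at 0.519 ± 0.573. The range of Aqp7 in EPR cKO, 0.0607 to 1.63 CPM per kilobase, overlapped that of Aqp3, 0.0602 to 0.775.

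The main comparison asked whether aquaporin RNA differed between EPR cKO and EPR fl/fl proximal colon. None of the 5 tested members passed an adjusted p of 0.05 in the edgeR quasi-likelihood test, against 2.46% of all 15952 tested genes (1.57% lower and 0.884% higher in EPR cKO). Aqp1 and Aqp7 were below an unadjusted p of 0.05, both with a lower mean in EPR cKO, against 18.3% of all tested genes (7.12% lower and 11.1% higher). DESeq2 also called 0 of the 5, in a fit that called 5.72% of all tested genes, as did limma-voom, which called 3.15%. With sample quality weights limma-voom called Aqp7, in a fit that called 20.5% of all tested genes (11.9% lower). The groups overlapped for each of the 5, whereas they did not overlap for 2.47% of tested genes. Aqp1 and Aqp7 had negative log2 fold changes and Aqp4, Aqp8 and Aqp11 positive ones, also with DESeq2 size factors and with total counts in place of TMM scaling, and the median of the 5 was 0.16 against 0.02 over all tested genes.

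**Figure D1:**
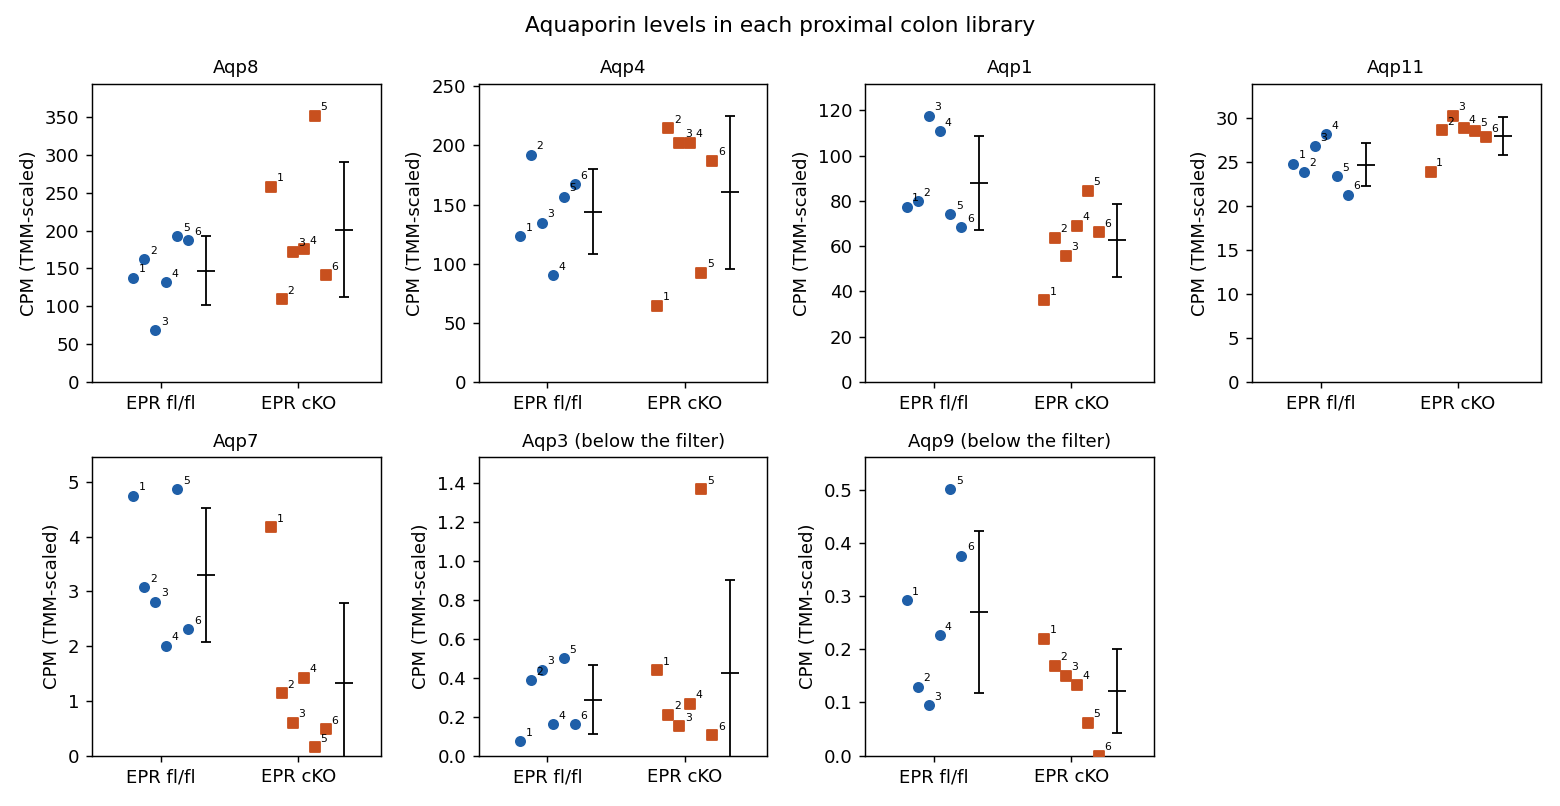
TMM-scaled CPM (y axis, from 0) of the 7 aquaporins in each EPR fl/fl (blue circles) and EPR cKO (orange squares) library, with replicate numbers beside the points and the mean and SD as black bars, cut off at 0 where the SD is larger than the mean. The groups overlap in every panel, and EPR cKO 1 has the highest Aqp7 of its group, at 4.17 CPM, and the lowest Aqp1, at 36.1 CPM.

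Among the water channels of the epithelium, Aqp8 ranged from 68.6 to 193 CPM in EPR fl/fl, with a median of 150 CPM, and from 110 to 352 CPM in EPR cKO, with a median of 173 CPM. The EPR cKO 5 and EPR cKO 1 libraries lay above every control, and the other 4 lay within the control range. The group means were 147 ± 45.6 and 201 ± 88.9 CPM, and the difference of 0.46 on the log2 scale (SE 0.29) did not pass (adjusted p = 0.414). At this spread a difference of that size was not distinguishable from the variation between animals.

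Aqp4 lies on chromosome 18 of mm10 (15389496 to 15410982, minus strand). It ranged from 90.3 to 192 CPM in EPR fl/fl, with a median of 146 CPM, and from 64.5 to 214 CPM in EPR cKO, with a median of 195 CPM. In EPR cKO the values fell into a high set of 4 libraries, 187 to 214 CPM, and a low pair, EPR cKO 1 at 64.5 CPM and EPR cKO 5 at 92.2 CPM. No direction could be read from the log2 fold change of 0.16, whose SE was 0.28 (adjusted p = 0.779).

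Aqp11 varied least. It ranged from 21.3 to 28.1 CPM in EPR fl/fl, with a median of 24.4 CPM, and from 23.9 to 30.3 CPM in EPR cKO, with a median of 28.6 CPM. EPR cKO 1 was the lowest of its group, and EPR cKO 2, 3, 4 and 5 lay above all controls. The log2 fold change was 0.18 (SE 0.08, unadjusted p = 0.0507, adjusted p = 0.276). It was 0.20 when EPR cKO 1 was left out, with an adjusted p of 0.0685.

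Aqp1 had 68.3 to 118 CPM in EPR fl/fl, with a median of 78.7 CPM, and 36.1 to 84.5 CPM in EPR cKO, with a median of 65.0 CPM. EPR fl/fl 3 and 4 were the highest at 118 and 111 CPM, and 4 of the 6 EPR cKO libraries lay below the lowest control, EPR cKO 4 and 5 being the exceptions. Controls averaged 88.1 ± 20.7 CPM, and EPR cKO libraries 62.6 ± 16 CPM (SD, n = 6). The log2 fold change was −0.49 (SE 0.19, unadjusted p = 0.0216, adjusted p = 0.196). With the difference between epithelium and smooth muscle genes in each library as a covariate, the value was −0.86 (SE 0.18) with an adjusted p of 0.0255, a threshold passed by 2.02% of all tested genes in that fit (1.5% lower). With the same covariate but without EPR cKO 1, the value was −0.70 with an adjusted p of 0.647. The covariate ran from 0.735 to 1.44 in EPR fl/fl and from 1.75 to 3.25 in EPR cKO 2 to 6, and was −0.228 in EPR cKO 1. Apart from EPR cKO 1 the groups did not overlap in it, so the fit rests on that library to tell tissue content from genotype.

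Aqp7, the glycerol channel of fat cells, had 2.01 to 4.86 CPM in EPR fl/fl, with a median of 2.95 CPM, and 0.155 to 4.17 CPM in EPR cKO, with a median of 0.871 CPM. These are 43 to 95 counts in the controls and 5 to 76 in EPR cKO. EPR cKO 1 had 4.17 CPM, while EPR cKO 2 to 6 had 0.155 to 1.43 CPM and lay below every control. Over all 12 libraries the means were 3.30 ± 1.22 and 1.33 ± 1.47 CPM, and the log2 fold change was −1.32 (SE 0.58, unadjusted p = 0.0389, adjusted p = 0.247). Leaving out EPR cKO 1 gave −2.13 (SE 0.45) with an adjusted p of 0.00720, in a fit in which 21.8% of all tested genes passed and 14.4% passed as lower. With the tissue composition covariate described for Aqp1 the value was −0.77 (SE 0.42) with an adjusted p of 0.431. Nonoverlapping groups with lower EPR cKO values were found for 7.22% of tested genes once that library was left out.

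Aqp3 and Aqp9 were near the limit of detection. Aqp3 had 1 to 14 counts in the EPR fl/fl libraries and 2 to 44 in EPR cKO. Of the 68 counts in EPR cKO, 44 came from EPR cKO 5, at 1.37 CPM, and the other 5 libraries had 0.106 to 0.439 CPM, within the control range of 0.0730 to 0.501 CPM. Aqp9 had 3 to 7 counts in EPR fl/fl and 0 to 4 in EPR cKO, and the count of 0 in EPR cKO 6 allows up to 0.159 CPM. In a fit with no filter on low counts neither passed, with an adjusted p of 0.623 for Aqp3 and 0.536 for Aqp9. Differences in these genes were not detectable at this depth.

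**Figure D2:**
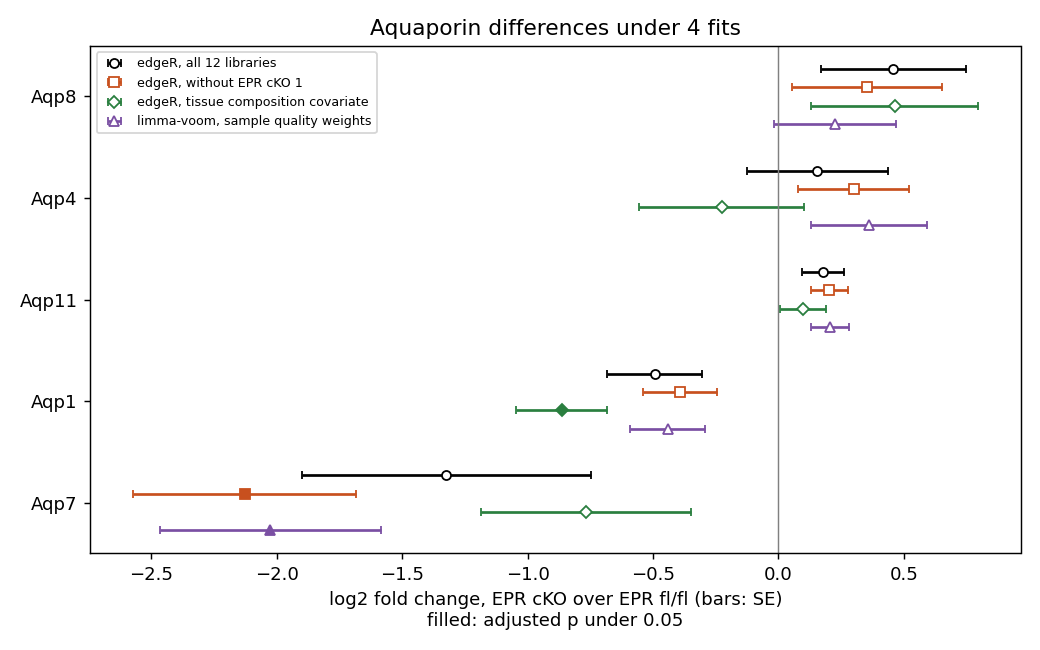
Log2 fold change of EPR cKO over EPR fl/fl (x axis, bars are SE) for the 5 tested aquaporins under 4 fits, with filled symbols for an adjusted p under 0.05. Aqp7 passes without EPR cKO 1 (−2.13) and with sample quality weights (−2.02), Aqp1 passes with the tissue composition covariate (−0.86), and Aqp4 changes sign with that covariate (−0.23). Apart from EPR cKO 1, the groups do not overlap in that covariate.

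The other mouse aquaporins had few or no counts. Aqp2, the vasopressin-regulated channel of the kidney, had 0 counts in all 12 libraries. Mip, the lens channel, had 4 counts over 3 libraries, Aqp5 had 2, Aqp6 had 1, and Aqp12 had 50 over 11 libraries, with at most 12 in any library. None of these 5 genes passed the filter.

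The next question was how the channels relate to the tissue in each library. Marker lists of the tissue layers differed in direction between the groups: all 16 tested epithelium genes had a positive log2 fold change (median 0.27), all 15 blood endothelium genes a negative one (median −0.38), and all 12 adipocyte genes a negative one (median −1.35), and a single gene of these lists, the adipocyte galectin Lgals12, passed the threshold. The signs were the same with DESeq2 size factors and with total counts. The endothelium list includes Plvap, for which the study reported higher protein in EPR cKO mucosa by immunohistochemistry, a measure unlike RNA of whole tissue. All 10 smooth muscle genes (median −0.48) and all 5 tested red blood cell genes (median −1.11) were also lower without passing. When EPR cKO 1 was left out, 12 of 12 adipocyte, 10 of 10 smooth muscle, 8 of 15 endothelium and 6 of 16 epithelium genes passed in those directions. In that fit 21.8% of all tested genes passed, and 14.4% passed as lower. The medians were then 0.31 for epithelium, −0.72 for endothelium, −2.10 for adipocytes, −1.28 for smooth muscle and −1.42 for red blood cells. Within the epithelium, the 12 goblet cell genes, several of them named by the study for these mice, were all lower (median −0.81), and 7 passed, 11 when EPR cKO 1 was left out. The list includes Tff3, for which the study reported similar levels in both groups by qRT-PCR, in isolated crypts and not in whole tissue. Muc2, the main secreted mucin of the colon, averaged 8006 CPM in controls and 1755 CPM in EPR cKO (log2 fold change −2.19, adjusted p = 0.000741), and Atoh1, a secretory fate factor, had −1.12 (adjusted p = 0.000584). Of 12 surface colonocyte genes, 9 were higher and 3 lower, with a median of 0.29, and 0 passed. The epithelium list used as a reference below shares no gene with the goblet cell list and Krt20 with the surface colonocyte list. In whole tissue, fewer cells of a type and less RNA per cell cannot be told apart.

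The mean log2 CPM of the epithelium genes was 9.30 ± 0.149 in controls against 9.57 ± 0.203 in EPR cKO, a difference of 0.27 (exact permutation p = 0.0260, adjusted p = 0.0519 over 4 lists). The adipocyte genes averaged 5.62 ± 0.599 and 3.92 ± 1.29, a difference of −1.70 (exact permutation p = 0.0152, adjusted p = 0.0519). The endothelium genes averaged 2.70 ± 0.112 and 2.17 ± 0.657 (exact permutation p = 0.0758). Within the EPR cKO group the summed CPM of the adipocyte list ran from 96.2 to 1278, against 599 to 1700.4 in EPR fl/fl, that of the endothelium list from 50.1 to 187 against 112 to 133, and that of the epithelium list from 13815 to 20803 against 11624 to 16703. These lists moved together across the 12 libraries, with r = −0.76 between epithelium and endothelium, −0.77 between epithelium and adipocytes, and 0.90 between endothelium and adipocytes.

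**Figure D3:**
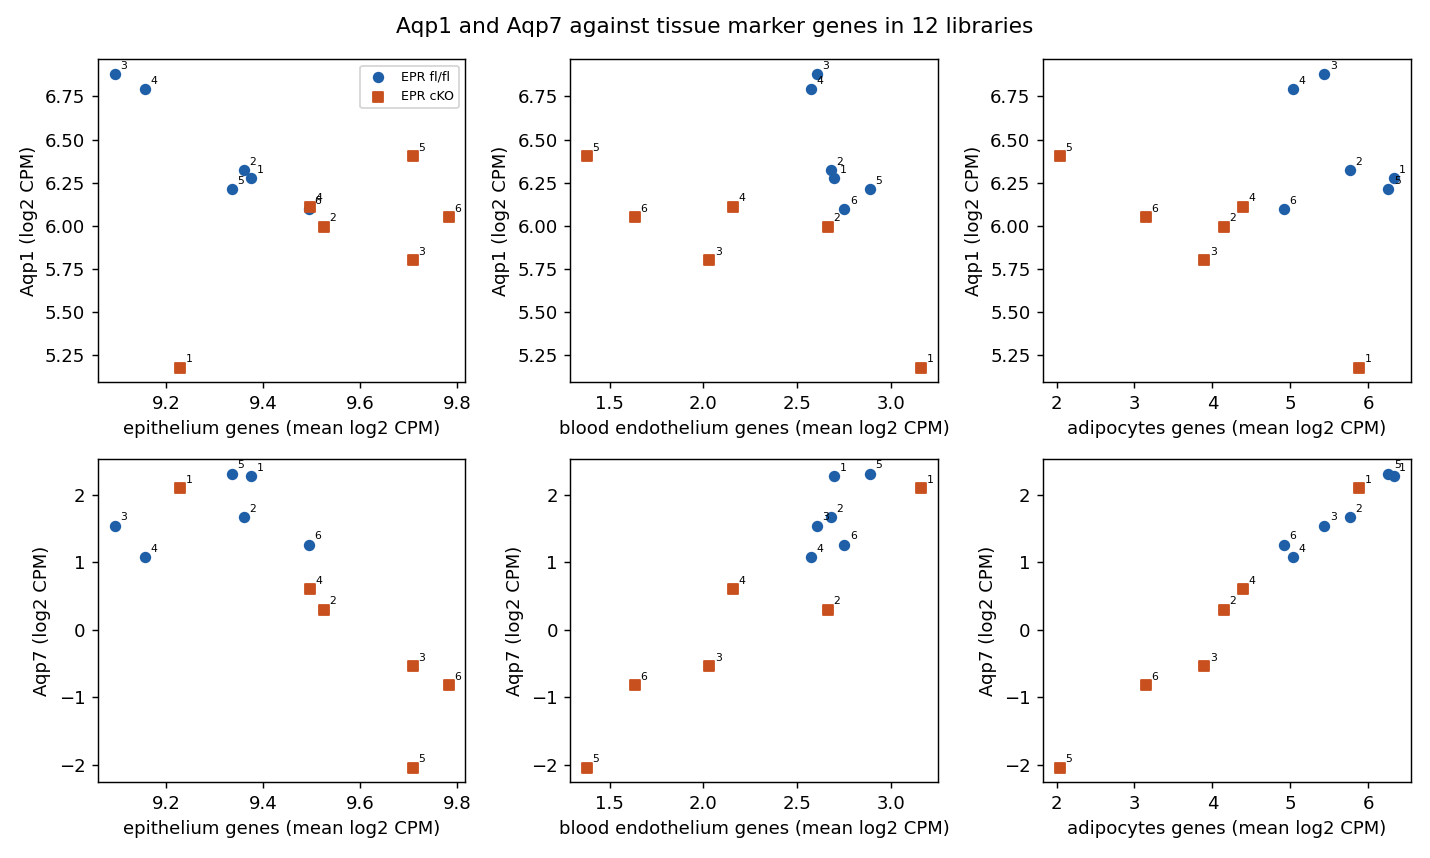
Log2 CPM of Aqp1 (top row) and Aqp7 (bottom row) on the y axis against the mean log2 CPM of epithelium, blood endothelium and adipocyte genes on the x axis, for 6 EPR fl/fl (circles) and 6 EPR cKO (squares) libraries with replicate numbers. Aqp7 lies along a line with the adipocyte genes (r = 0.990) in both groups, while Aqp1 shows no such line with the endothelium genes (r = −0.19).

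Aqp7 tracked the fat genes. Over the 12 libraries its log2 CPM and the adipocyte mean had Pearson's r = 0.990 and Spearman's rho = 0.986 (permutation p = 1e-05 for both, the smallest that the permutations can give, adjusted p = 0.00015 over 15 relations). Within EPR fl/fl r was 0.973 (exact permutation p = 0.00833, adjusted p = 0.0625 over 30 relations within groups), and within EPR cKO it was 0.987 (exact permutation p = 0.00139, adjusted p = 0.0417). Leaving out EPR cKO 5 and 6, the libraries farthest from the median, gave r = 0.973. After group means were removed, Aqp7 correlated positively with 12 of 12 adipocyte genes, with a median r of 0.92 and of 0.90 without EPR cKO 1. Its r over the 12 libraries was 0.923 with the endothelium mean and −0.79 with the epithelium mean. Those means had r = 0.90 and −0.77 with the adipocyte mean. Within EPR fl/fl, r of Aqp7 was 0.64 with endothelium, −0.13 without EPR fl/fl 4 and 5, and 0.26 with epithelium. Within EPR cKO it was 0.94 with endothelium and −0.91 with epithelium.

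Aqp1 showed no positive relation to the vessel genes. Its r with the endothelium mean was −0.19 over the 12 libraries (rho −0.20, permutation p = 0.561, adjusted p = 0.650). Within EPR fl/fl r was −0.79 (adjusted p = 0.183, exact permutation), and −0.97 without EPR fl/fl 4 and 5. Within EPR cKO r was −0.83 (adjusted p = 0.125, exact permutation), and this value rested on EPR cKO 1 and 5, since without them it was −0.03. After group means were removed, 0 of 15 endothelium genes correlated positively with Aqp1, with a median r of −0.63. With EPR cKO 1 left out, 1 of 15 did, with a median of −0.35. The 5 tested red blood cell genes gave a median r of −0.58 with Aqp1, and 0 of 5 were positive. The relation of Aqp1 to the epithelium mean had opposite signs within the groups, with r = −0.97 among controls and 0.74 among EPR cKO libraries, with no adjusted p under 0.05 in either. The value among EPR cKO libraries rested on EPR cKO 1 and 6, since r was 0.087 without them. After group means were removed, 11 of 16 epithelium genes correlated positively with Aqp1, and 1 of 16 did once EPR cKO 1 was left out, with medians of 0.15 and −0.45. Of the 12 goblet cell genes, which are not in the epithelium list, 8 correlated positively with Aqp1, and 9 did without EPR cKO 1, with medians of 0.20 and 0.39.

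Aqp11 had r = −0.65 with the endothelium mean and −0.63 with the adipocyte mean, each with an adjusted permutation p of 0.0785 for r. Its Spearman's rho with the endothelium mean was −0.76 (adjusted permutation p = 0.0285), and rho with the adipocyte mean was −0.66 (adjusted permutation p = 0.0690). Within EPR fl/fl, r with the endothelium mean was −0.74 (adjusted p = 0.228, exact permutation), and −0.94 without EPR fl/fl 4 and 5. Within EPR cKO, r with the endothelium mean was −0.63, and 0.20 without EPR cKO 1 and 5. After group means were removed, 0 of 15 endothelium genes (median r −0.45) and 1 of 12 adipocyte genes (median −0.37) correlated positively with Aqp11. These became 5 of 15 (median −0.12) and 7 of 12 (median 0.01) with EPR cKO 1 left out. With the epithelium mean, r of Aqp11 was 0.37 over the 12 libraries (adjusted permutation p = 0.439). Within EPR fl/fl it was −0.91 and within EPR cKO 0.76, with no adjusted p under 0.05 in either. After group means were removed, 8 of 16 epithelium genes correlated positively with Aqp11, and 0 of 16 did with EPR cKO 1 left out (median −0.42). For Aqp4 and Aqp8 no pooled relation to the 3 lists had an adjusted p under 0.05, and r ran from −0.31 to 0.45. For Aqp4 the sign of its relation to endothelium and adipocyte genes turned with EPR cKO 1: after group means were removed, 3 of 15 endothelium genes and 1 of 12 adipocyte genes correlated positively with it over 12 libraries, and 15 of 15 and 12 of 12 did without that library.

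Each channel was then expressed relative to the 3 lists within its own library, as log2 CPM of the channel minus the mean log2 CPM of the list, and the 15 ratios were compared by exact permutation over all ways to assign 6 of 12 libraries. For 5 of the 15 the adjusted p was 0.0390, and the groups overlapped in all 15.

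Relative to epithelium, Aqp1 was lower in EPR cKO, at −3.65 ± 0.296 against −2.87 ± 0.471 in EPR fl/fl (SD, n = 6), a difference of −0.78 (exact permutation p = 0.00649, adjusted p = 0.0390). The EPR fl/fl libraries ran from −3.40 to −2.21 and the EPR cKO libraries from −4.05 to −3.31. Relative to endothelium, Aqp1 did not differ detectably, at 3.73 ± 0.418 and 3.75 ± 1.03 (exact permutation p = 0.970). Thus the 2 reference lists gave different answers for this channel, and the endothelium ratio spread from 2.02 in EPR cKO 1 to 5.02 in EPR cKO 5.

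Relative to fat genes, Aqp7 showed the smallest spread of the 15 ratios between libraries in EPR fl/fl, at −3.94 ± 0.154 against −3.99 ± 0.247 in EPR cKO, a difference of −0.05 (exact permutation p = 0.693). EPR cKO 1, which stood out in Aqp7 level, was at −3.79, within the control range of −4.10 to −3.66. In EPR cKO the ratio with the smallest spread was that of Aqp11 to epithelium, with an SD of 0.137, although no positive relation of Aqp11 to the epithelium mean was detected. Relative to epithelium Aqp7 was lower by −2.03 in EPR cKO (exact permutation p = 0.0130), and relative to endothelium by −1.23 (exact permutation p = 0.00866), each with an adjusted p of 0.0390.

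For the 3 channels with positive log2 fold changes, no difference relative to the epithelium genes was detected. The difference in the epithelium ratio was 0.15 for Aqp8 (adjusted p = 0.742, exact permutation), −0.21 for Aqp4 (adjusted p = 0.603, exact permutation) and −0.09 for Aqp11 (adjusted p = 0.603, exact permutation). Relative to the adipocyte genes, which were lower in EPR cKO, Aqp8 was higher by 2.13 and Aqp11 by 1.88 (adjusted p = 0.0390 each, exact permutation), and Aqp4 by 1.76 (adjusted p = 0.0835, exact permutation). The adipocyte mean itself differed by −1.70, so most of each of these differences is that of the fat genes. The corresponding differences relative to endothelium were 0.95 for Aqp8, 0.71 for Aqp11 and 0.59 for Aqp4, none with an adjusted p under 0.05.

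The 5 ratios that passed were sensitive to single libraries. Aqp1 to epithelium and Aqp8 to adipocytes still passed without EPR fl/fl 6 or EPR cKO 1, 2 or 4, Aqp7 to endothelium without EPR cKO 1, 2 or 4, and Aqp7 to epithelium and Aqp11 to adipocytes without EPR cKO 1. Without any other single library the adjusted p of each rose to at most 0.0909, with the direction kept.

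**Figure D4:**
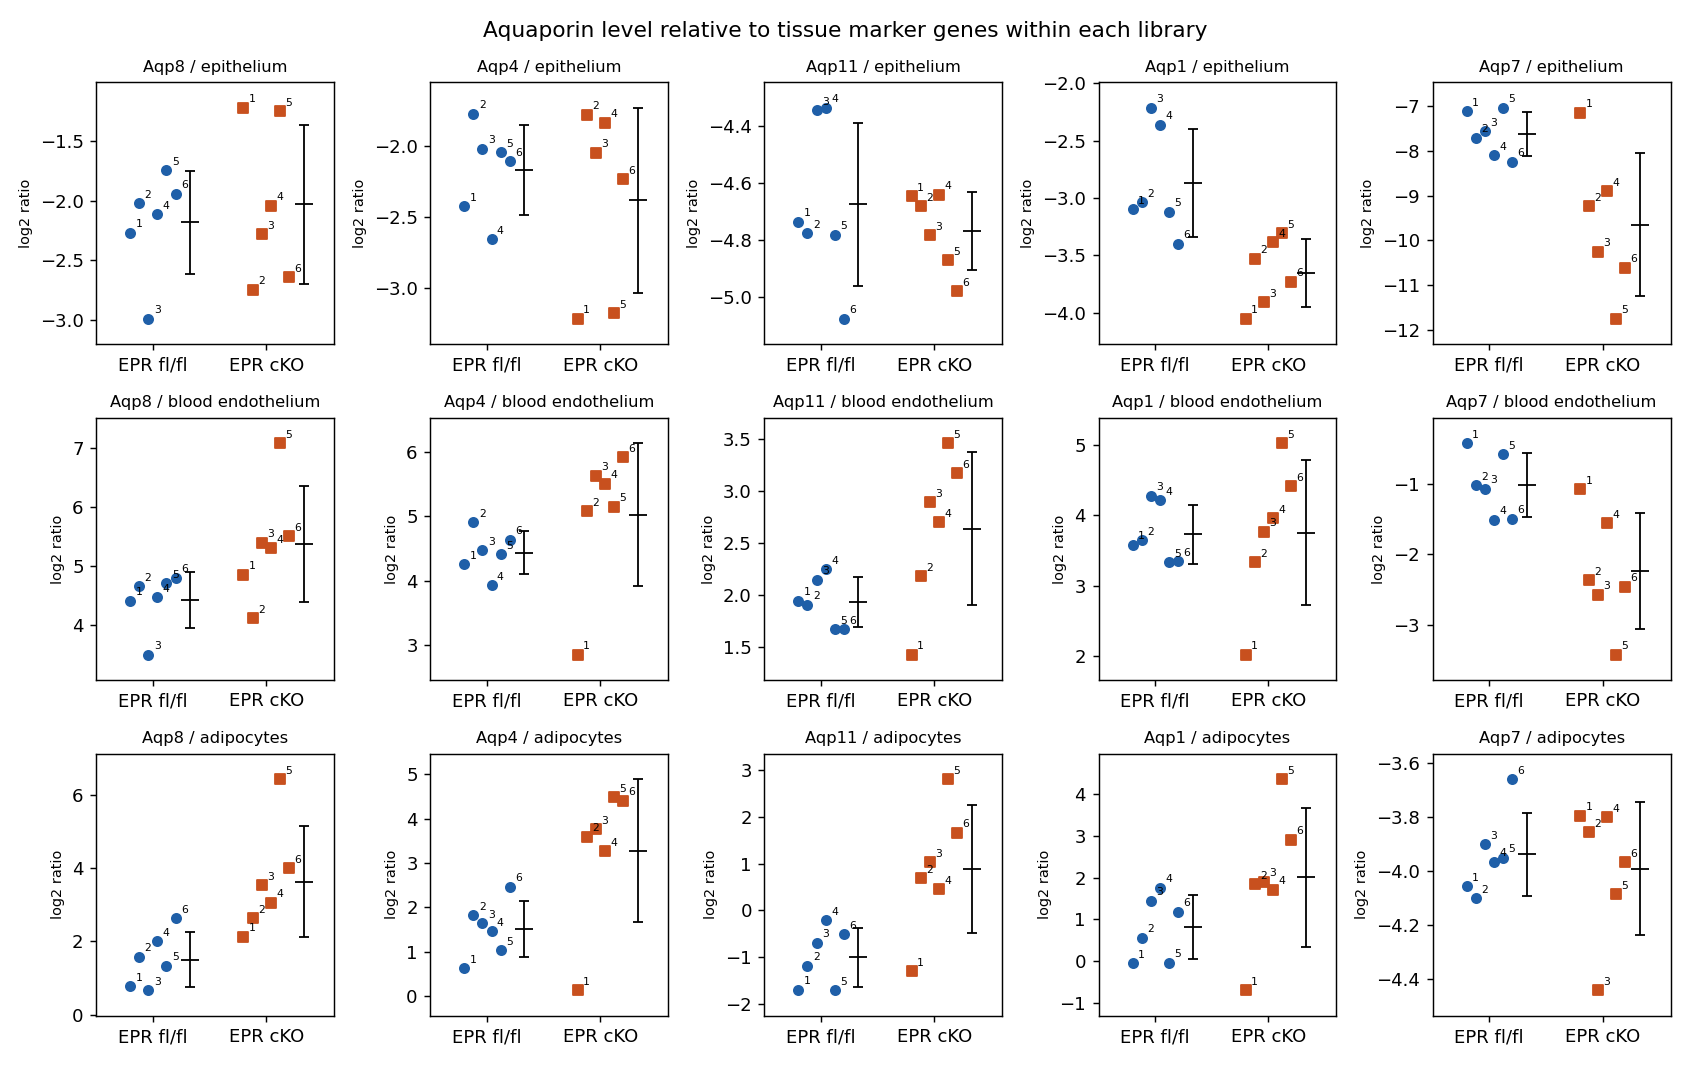
Log2 ratio (y axis) of each tested aquaporin to the mean of epithelium (top), blood endothelium (middle) and adipocyte (bottom) genes in the same library, for EPR fl/fl (blue circles) and EPR cKO (orange squares), with replicate numbers and the mean and SD as black bars; y axes differ between panels and do not start at 0. The Aqp7 to adipocyte ratio spans −4.44 to −3.66 over all 12 libraries, while the Aqp7 to epithelium ratio spans −11.8 to −7.03. The Aqp11 to epithelium ratio spans −5.08 to −4.34.

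Water follows salt across the colon, so the transporters that set up the gradient were read beside the channels. Of 16 genes of colonic salt absorption, 15 were tested, 7 with a negative and 8 with a positive log2 fold change (9 and 6 with total counts in place of TMM), and the median was 0.01. Scnn1b, the beta subunit of the epithelial sodium channel ENaC, passed and fell in EPR cKO, with 5.68 ± 1.68 CPM in controls and 0.855 ± 0.554 CPM in EPR cKO (log2 fold change −2.69, SE 0.37, adjusted p = 0.00168). Its EPR fl/fl libraries had 3.51 to 7.78 CPM and its EPR cKO libraries 0.300 to 1.90 CPM, without overlap. Scnn1a, the alpha subunit, had −0.26 (adjusted p = 0.260), Slc26a3, the chloride and bicarbonate exchanger of surface colonocytes, 0.65 (adjusted p = 0.160), and Slc16a1, a monocarboxylate transporter, 0.33 (adjusted p = 0.173).

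All 13 genes of colonic salt secretion were tested, and 0 passed. Of these, 4 were lower and 9 higher (6 and 7 with total counts), with a median of 0.03. An unadjusted p under 0.05 in the edgeR test was found for 3 of the 13, against 18.3% of all tested genes. Guca2a, the guanylin precursor, had the smallest p, with 827 ± 168 CPM in controls and 1136 ± 95 CPM in EPR cKO (log2 fold change 0.46, adjusted p = 0.0709). Best2, a goblet cell bicarbonate channel, had −1.32 (adjusted p = 0.160), Ano1, a calcium-activated chloride channel, −0.69 (adjusted p = 0.167), and Slc12a2, the basolateral sodium-potassium-chloride cotransporter, −0.27 (adjusted p = 0.302). Leaving out EPR cKO 1, 1 gene of this list passed in each direction, in a fit in which 21.8% of all tested genes passed.

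The 13 genes of glycerol and fat handling, the setting of Aqp7, were 8 lower and 5 higher in EPR cKO, with a median of −0.18, and 0 passed. An unadjusted p under 0.05 in the edgeR test was found for 5 of them, against 18.3% of all tested genes. Lipe, the hormone-sensitive lipase of fat cells that is also in the adipocyte list, had 59.1 ± 19.9 and 30.0 ± 24.3 CPM (log2 fold change −0.98, adjusted p = 0.225). Lpl, lipoprotein lipase, had −1.33 (adjusted p = 0.243). Gpd2, the mitochondrial glycerol-3-phosphate dehydrogenase, had 0.24 (adjusted p = 0.169) and Pparg, a nuclear receptor of fat cells that colonocytes also express, 0.30 (adjusted p = 0.235). Gk, glycerol kinase, had 0.04 (adjusted p = 0.898) and was named for its role after its values were seen. In the fit without EPR cKO 1, in which Aqp7 passed, 5 of the 13 passed as well, all lower, against 14.4% of all tested genes that passed as lower. The adipocyte list, which shares Lipe with this one, had 12 of 12 passing as lower in that fit.

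Of 14 genes of the response to tonicity, 11 were tested, 3 lower and 8 higher (4 and 7 with total counts), with a median of 0.07, and 0 passed. An unadjusted p under 0.05 in the edgeR test was found for 3 of the 11, against 18.3% of all tested genes. Oxsr1, a kinase of cell volume control, had 0.17 (adjusted p = 0.155), its partner Stk39 −0.21 (adjusted p = 0.248), Akr1b3, the aldose reductase that makes sorbitol, 0.42 (adjusted p = 0.181), and the chaperone Hspa4l 0.26 (adjusted p = 0.356).

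Finally, the genes whose pattern across libraries was most like each tested member were listed by Pearson's r of log2 CPM over the 12 libraries after group means were removed, as a description. For Aqp7 the 5 closest were Abcd2, Cd36, Prkar2b, Glb1l2 and Trarg1, with r from 0.990 to 0.983, and still 0.966 or more without EPR cKO 1. Cd36 is a fatty acid transporter, Abcd2 a peroxisomal transporter of fatty acids in fat, and Trarg1 a regulator of glucose uptake in fat cells that is also in the adipocyte list.

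For Aqp1 the closest were Sord, Gm13657, 2310030G06Rik, Eif4b and Lrrc8e, with r from 0.967 to 0.949, and 0.953 to 0.899 without EPR cKO 1. Sord is sorbitol dehydrogenase, Eif4b a translation initiation factor and Lrrc8e a subunit of the volume-regulated anion channel. None of the 5 is in the endothelium list. For Aqp8 the closest were Mpst, Epop, Sult1b1, Lrrc42 and Eloc, from 0.915 to 0.886, among them Mpst, which makes hydrogen sulfide, and Sult1b1, a sulfotransferase.

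For Aqp11 the closest were Gm44985, Socs2, Mpzl1, Slc12a2 and Chgb, from 0.930 to 0.906, among them the salt cotransporter Slc12a2 named above and Chgb, a granin of enteroendocrine cells. For Aqp4 the likeness was weaker, from 0.851 for Gm16046 through Taf1c, Rpl36al and Lrrc26 to 0.839 for Mif4gd, and without EPR cKO 1 it was 0.660 to 0.792. Among the members themselves, Aqp1 and Aqp11 had r = 0.80 and Aqp1 and Aqp7 r = −0.71, and the other 8 pairs ran from −0.52 to 0.16.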

How the data were processed

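Reads were trimmed by the authors with Trimmomatic, aligned to mm10 with STAR 2.5.3a and counted per gene with featureCounts against Ensembl GRCm38.97. The authors deposited raw counts per gene, neither normalized nor filtered. Strand and multi-mapping settings of the counting are not given in the sources used here. All 12 columns were matched to samples by name. The smallest chi-square per gene between 2 libraries of a group was 24.7, so none was a repeat.

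Tests used R 4.3.3 and edgeR 4.0.16: genes with at least 1 CPM in at least 4 libraries (15952 of 36694 with any count), TMM scaling, quasi-likelihood F test without covariate, Benjamini-Hochberg adjustment over all tested genes, checked on simulated data. SE was the absolute log2 fold change over the square root of F. Log2 CPM used a prior count of 2. The study's thresholds (adjusted p 0.001, absolute log2 fold change 1.25) were also applied. Groups were compared in ratios by two-sided exact permutation. Alternatives used DESeq2 1.42.0, limma 3.58.1, other scaling and filters, a tissue covariate, a replicate block and leaving out each library. The upper limit given for a library without counts (3 counts) covers counting error only. Pore boxes were aligned with MAFFT 7.526 on the longest open reading frame of GENCODE M21 transcripts.

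The members and gene lists were chosen with earlier results of these data known. Named genes were the members, EPR, the other aquaporins, the 5 genes most like each tested member and the 4 genes with the smallest p of each pathway list. Gk, Lgals12, Muc2, Atoh1, Tff3 and Krt20 were named after their values were seen.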

Additional observations from a re-analysis of the deposited data

Results flagged for a closer look

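Dixon's test of the highest and lowest library in each group of 6 was run on 50 sets of values, and 5 passed, where chance alone gives about 2.5. Aqp3 in EPR cKO 5 was 1.37 CPM, with the nearest EPR cKO library at 0.439 CPM. Aqp7 in EPR cKO 1 was 4.17 CPM, with the nearest at 1.43 CPM. The log2 ratio of Aqp4 to blood endothelium was 2.85 in EPR cKO 1 against 5.08 or more in the other 5, and that of Aqp4 to adipocytes was 0.13 there against 3.26 or more. The log2 ratio of Aqp8 to blood endothelium was 3.5 in EPR fl/fl 3, with the nearest control at 4.41. Of the 5, 3 were in EPR cKO 1, the library with the highest smooth muscle level, and the part of its tissue content in these values was not tested.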

How the results depend on the processing

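The main edgeR fit called 251 genes lower and 141 higher in EPR cKO at an adjusted p of 0.05, and 27 lower and 0 higher at the study thresholds. The higher count was 39 with total counts, 54 with no filter, 67 with the replicate block and 83 with the tissue covariate. DESeq2 gave 473 lower and 440 higher, and 69 and 8 at the study thresholds. Sample quality weights gave 1891 and 1372, and 51 and 4. The replicate block left 4 lower at the study thresholds, and the tissue covariate without EPR cKO 1, chosen after seeing the data, gave 4 and 0, and 0 lower at the study thresholds. Without EPR cKO 1 the groups did not overlap in the covariate, so group and tissue content cannot be told apart in that last fit. The cause of the other shifts was not tested. Leaving out 1 library gave 145 to 2273 lower and 31 to 1178 higher, and 19 to 48 and 0 to 3 at the study thresholds, each highest without EPR cKO 1 and the adjusted p counts lowest without EPR fl/fl 4.

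Aquaporins passing numbered 1 with sample quality weights (Aqp7, −2.02, adjusted p = 0.00958), 1 with the tissue covariate (Aqp1, −0.86, while Aqp7 was −0.77) and, leaving out libraries, 0 to 1, the 1 being Aqp7 without EPR cKO 1. Aqp4 reversed to −0.23 with the tissue covariate, and Aqp8 to −0.70 with the covariate and without EPR cKO 1. Leaving out 1 library gave log2 fold changes of −8.85 to −7.86 for EPR, −0.60 to −0.39 for Aqp1, 0.05 to 0.30 for Aqp4, −2.13 to −1.07 for Aqp7, 0.22 to 0.59 for Aqp8 and 0.14 to 0.22 for Aqp11.

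Leaving out 1 library gave ratio differences to epithelium of −0.88 to −0.65 for Aqp1, −2.53 to −1.61 for Aqp7 and −0.012 to 0.29 for Aqp8, to endothelium of −0.23 to 0.37 for Aqp1, 0.41 to 1.02 for Aqp4, −1.46 to −0.99 for Aqp7, 0.61 to 1.20 for Aqp8 and 0.54 to 0.95 for Aqp11, and to adipocytes of 0.72 to 1.74 for Aqp1, 1.52 to 2.39 for Aqp4, −0.091 to 0.038 for Aqp7, 1.57 to 2.43 for Aqp8 and 1.5 to 2.32 for Aqp11. Without EPR cKO 1 the ratios of Aqp1 and Aqp4 to adipocytes and of Aqp4 and Aqp11 to endothelium also passed, and without EPR cKO 2 that of Aqp8 to endothelium.

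The labels do not say whether replicate numbers pair the animals. Same-numbered libraries deviated together with r from −0.24 to 0.34, which cannot settle it. With the replicate block the ratio differences were unchanged at −0.78 for Aqp1 and −2.03 for Aqp7 to epithelium, −1.23 for Aqp7 to endothelium, and 2.13 for Aqp8 and 1.88 for Aqp11 to adipocytes, and a sign-flip test over the 6 numbers gave each a p of 0.0312, the smallest that 6 pairs allow. Adjusted over 15 ratios this is 0.0938, so with 5 ratios at that limit the test could not pass and says nothing about their stability. The block called 245 genes against 392 and none of the aquaporins. Precision was limited by 6 animals a group and, for Aqp3, Aqp7 and Aqp9, by low counts.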
